A study of Mus musculus with 12 samples.

Results

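Oxidative phosphorylation genes were followed in single cells of the mouse cochlea, across stages in spiral ganglion neurons (SGNs) and between SGNs, glia, otic mesenchyme (OM) and hair cells (HCs). The members were chosen by symbol alone, as the gene columns of the count table that start with Ndufa, Ndufb, Ndufc, Ndufs, Ndufv, Uqcr, Sdh (a to d), Cox4 to Cox8 or Atp5. Of 24489 genes, 94 met this rule. They comprised 38 genes of complex I, 4 of complex II, 8 of complex III, 18 of complex IV and 17 of complex V, together with 7 assembly factors of complex I (Ndufaf) and 2 of complex II (Sdhaf). The rule admits a few genes that are not subunits in the strict sense, such as these assembly factors and Atp5s and Atp5sl. Complexes were assigned by symbol too, so Ndufa4 and Ndufa4l2 are counted under complex I throughout. No mitochondrially encoded subunit was among the genes of the table.

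Oxidative phosphorylation takes electrons from NADH through complex I and from succinate through complex II, and passes them over complex III and cytochrome c to oxygen at complex IV. The protons pumped by complexes I, III and IV drive ATP synthase, complex V. Most subunits are encoded in the nucleus, and several subunits of complexes IV and V have paired forms that differ between tissues. Auditory neurons and HCs are known for a high demand for ATP.

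Cells of the reporter-positive gate (TOM+) were sorted one to a well on plates of 384 wells, and libraries were made by Smart-seq2, a full-length method without molecule barcodes. Each plate was 1 deposited sample and pooled tissue of several animals. Of the 12 plates, E16.5 had 3, E17.5 had 1 and every other stage had 2. All carried PVcre;Ai14 by their labels, a tdTomato reporter switched on where the Pvalb promoter drives or once drove Cre, except E14.5 replicate 2, labelled TrkCcre. The methods name Ntrk3Cre for E14.5 as a whole. At E14.5 and E15.5 the modiolus was taken, and later the spiral ganglion. Since the labels do not tie plates to separate litters, p-values measure the spread between these plates.

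Plates came in series that follow stage: E14.5, E15.5, E17.5 and E16.5 replicate 3 belonged to SS2_20, E16.5 replicates 1 and 2 to SS2_18, E18.5 to SS2_19 and P3 to SS2_15. Stage and series therefore cannot be told apart at E18.5 and P3. The paper took its P3 data from an earlier study of the same authors, and it reports a change of cell sorting facility at E18.5. Of 4608 wells, 4226 held a cell that passed the filter, with 80997594 to 303906928 counts per plate and medians of 232473 to 1092427 counts per cell. Clusters named from marker genes gave 2295 SGN-like, 1179 glia-like, 573 OM-like and 86 HC-like cells, and 93 stayed unnamed. They are called neurons, glia, mesenchyme and hair cells here.

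The classes carried their own markers, with exceptions that bear on the members. Summed over 10 SGN markers, neurons had 12490 to 16250 CPM (counts scaled to library size by TMM, the unit of levels here) and SS2_20 glia 158.2 to 232.1 CPM, but the 2 glia sums of SS2_18 had 6886 and 8807 CPM and the mesenchyme sum of SS2_18 had 8889 CPM. The glia sum of E18.5 had 2714 CPM. Glia markers in neurons were at 44.98 to 196.2 CPM at E14.5, E15.5 and E17.5, 580.3 to 950.6 CPM at E16.5 and 3740 to 4298 CPM at E18.5 and P3. Some glia clusters led with the melanocyte genes Pmel and Dct, and mesenchyme of E17.5 had 838.1 CPM over 5 macrophage markers. The E16.5 and E17.5 hair cell sums rested on 8 and 5 cells, and the E16.5 cluster led with Otog, Otoa and Epcam. The E16.5 sum had Atoh1 under 1 CPM, 2920 CPM of epithelial markers and 245.3 CPM of melanocyte markers. Its cells had a median of 3031 genes. The E17.5 hair cell sum had 2853 CPM of HC markers, 1998 CPM of glia markers and 696.9 CPM of cell division genes, against 0.962 to 19.16 CPM of the last in the other hair cell sums. Hair cells of E18.5 replicate 1 had 2016 CPM of OM markers, and the part of these in the hair cell values was not tested. Cochlear and vestibular hair cells were not separated here, whereas the paper told them apart and left the vestibular ones out. Those of E17.5 and E18.5 fell into a cluster of 47 cells led by Tecta and another of 27 led by Ocm.

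The 6 promoter stretches below show where motifs of factors known to act on respiratory genes lay. They belong to members among those with the lowest adjusted p in the comparisons of neurons whose stretch held a match. They run over the 120 bases before the RefSeq start (GRCm38.p6), 5′ to 3′ on the gene's strand, with matches in capitals. Matches, on either strand, are to the consensus motif of nuclear respiratory factor 1 (NRF1) or to CCGGAAG, an ETS motif, and the latter is read as CTTCCGG in Sdhd.
Atp5c1 (chr2:10080433-10080552, minus): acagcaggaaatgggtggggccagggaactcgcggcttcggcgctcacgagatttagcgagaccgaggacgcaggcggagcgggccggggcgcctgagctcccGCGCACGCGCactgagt
Ndufa11 (chr17:56717642-56717761, plus): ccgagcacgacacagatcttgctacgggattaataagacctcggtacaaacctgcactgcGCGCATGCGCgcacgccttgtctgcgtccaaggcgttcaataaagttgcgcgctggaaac
Ndufa5 (chr6:24527691-24527810, minus): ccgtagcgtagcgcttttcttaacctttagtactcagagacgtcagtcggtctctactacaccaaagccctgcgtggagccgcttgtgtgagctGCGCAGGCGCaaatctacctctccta
Ndufs6 (chr13:73328483-73328602, minus): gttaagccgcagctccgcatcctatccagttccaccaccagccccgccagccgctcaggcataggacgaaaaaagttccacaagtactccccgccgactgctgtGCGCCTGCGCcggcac
Sdha (chr13:74350241-74350360, minus): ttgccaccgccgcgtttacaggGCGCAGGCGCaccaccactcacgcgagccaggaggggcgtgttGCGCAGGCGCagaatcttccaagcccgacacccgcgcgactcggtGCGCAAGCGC
Sdhd (chr9:50603850-50603969, minus): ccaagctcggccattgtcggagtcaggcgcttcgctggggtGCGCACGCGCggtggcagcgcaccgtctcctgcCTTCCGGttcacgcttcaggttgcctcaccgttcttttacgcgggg

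RefSeq promoter windows, from 250 bases before to 50 after the start, matched 78 of the 94 members. The NRF1 motif lay in those of 19 members (24.36%), against 5.19% of 27025 genes. These 27025 are all genes with RefSeq windows and were not limited to genes counted or tested here. The ETS motif lay in 19 (24.36%, against 9.93% of genes) and a YY1 motif, AANATGGC, in 20 (25.64%, against 6.96%). In all, 50 of the 78 held at least 1 of the 3 motifs. Members with and without the NRF1 motif differed little in the change described below from E18.5 to P3 in neurons, with median log2 fold changes of 0.97 (18 members) and 1.09 (59 members). With the YY1 motif 20 of 20 members were called higher (median 1.05), and without it 43 of 57 (1.08). For the ETS motif these were 14 of 19 (0.99) and 49 of 58 (1.10).

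Per kilobase of exon, and by the mean over the 4 classes, the highest member of each complex was Cox6b1 in complex IV, Atp5b in complex V, Ndufa2 in complex I, Uqcrh in complex III and Sdhd in complex II. Cox6b1, which joins the dimers of cytochrome c oxidase, was at 886.8 ± 429.5 CPM per kb in neurons (SD, n = 12 plates) and 372.8 ± 145.5 in mesenchyme (n = 7). Atp5b, the catalytic beta subunit of ATP synthase, was at 847.3 ± 367.3 CPM per kb in neurons and 453.2 ± 71.2 in glia. Ndufa2, an accessory subunit of complex I, ran the other way, with 230.9 ± 78.7 CPM per kb in neurons and 305.0 ± 28.7 in glia. Uqcrh, the hinge protein of complex III, and Sdhd, a membrane anchor of complex II, averaged 282.2 ± 147.1 and 216.4 ± 131.6 CPM per kb in neurons. In neurons alone the order differed, with Ndufa4 at 481.1, Uqcrfs1 at 331.8 and Sdhb at 226.7 CPM per kb, above Ndufa2, Uqcrh and Sdhd. The wide SDs in neurons span the 6 stages. Glia, mesenchyme and hair cells had no P3 sum, so these means mix class with age and plate series. Classes are compared within plates below. Of the assembly factors, Ndufaf6 ranked highest by that mean, with 52.1 CPM per kb in hair cells and 24.4 in neurons, where Ndufaf5 was at 36.5.

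Some low members are uncertain. Of the 93 members compared, 10 share a stretch of at least 100 bases at 99% identity or more with an annotated pseudogene transcript. These are Atp5g1, Atp5g2, Atp5h, Atp5l, Cox7a2l, Cox7c, Ndufa12, Ndufab1, Ndufb4 and Ndufs5. As the authors counted uniquely mapped reads alone, reads of such stretches could be lost, and 7 of these 10 were among the 20 lowest members per length. Whether strand was used in counting is not stated in the sources used here, and exons of Ndufa13 (with Tssk6), Ndufb6 (39.0%, with Smim27), Ndufaf2 (65.6%) and Sdhaf1 (69.6%) overlap a gene on the opposite strand.

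**Figure D1:**
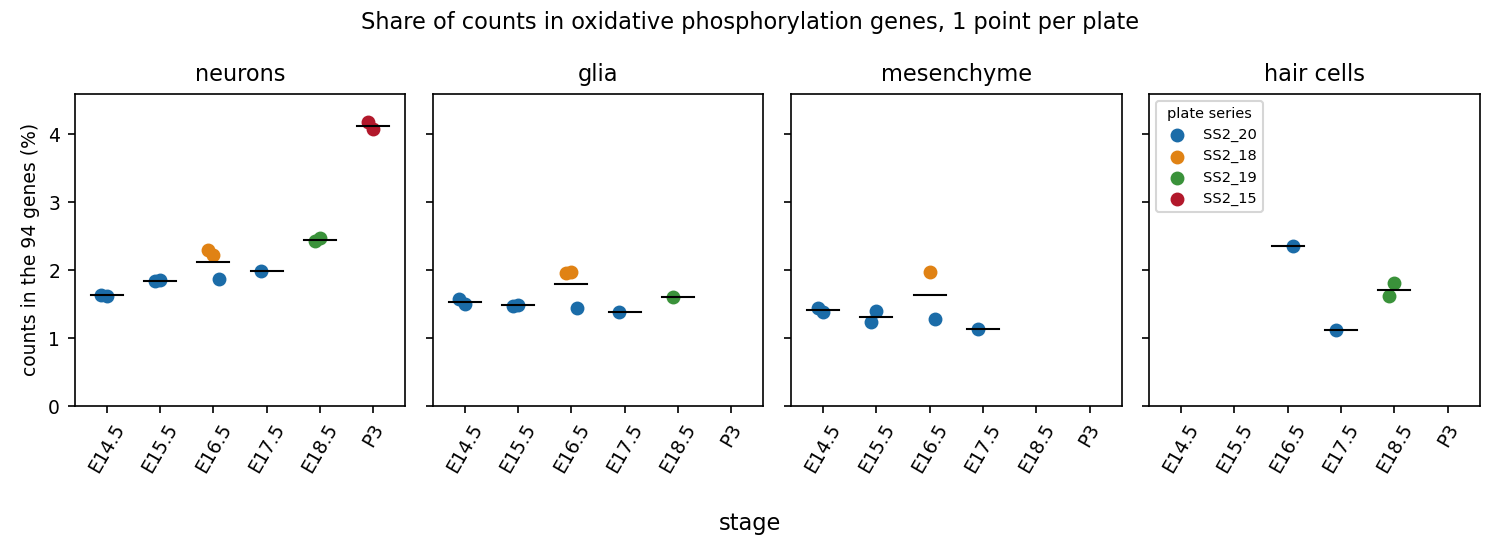
Percent of all gene counts that fell in the 94 genes (y axis), by stage (x axis), in each of 4 cell classes. Each point is 1 plate, coloured by plate series, and bars are means over plates. Neurons ran from 1.62% at E14.5 to 4.18% at P3, and at E16.5 the SS2_18 plates lay above the SS2_20 plate in neurons, glia and mesenchyme.

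The first comparison followed neurons from E14.5 to P3. The 94 genes took 1.64% and 1.62% of neuronal counts on the E14.5 plates, 1.83% and 1.86% at E15.5, and 2.29%, 2.22% and 1.87% on the E16.5 plates. They took 1.99% at E17.5, 2.43% and 2.47% at E18.5, and 4.18% and 4.08% at P3. The P3 plates stood clear of all others, and E18.5 above all earlier plates. The rise was also seen within single cells, whose median share was 1.58% and 1.59% at E14.5 and 4.21% and 4.12% at P3.

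From E18.5 to P3, 75 of 92 members tested rose in neurons and 0 fell (edgeR quasi-likelihood, adjusted p under 0.05). Over all 17760 genes tested, 12.5% rose and 12.4% fell. The median log2 fold change was 1.08 over the members and -0.10 over all genes. On 90 of the 92 members both P3 plates lay above both E18.5 plates, which held for 34.3% of all genes, and for Ndufa4l2 both lay below (41.5% of genes). Of the 1479 other genes with exons no longer than the median member (1675 bases), 16.4% rose, and of 83 ribosomal protein genes 2 rose and 5 fell. Both lists were added after values were seen.

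The complexes rose together, by counts. In complex I, which takes electrons from NADH, 34 of 37 members tested rose. In complexes II and III, all 4 and all 8 members rose. In complex V, 13 of 17 rose, and in complex IV 9 of 17. Of the assembly factors, 6 of 7 Ndufaf and 1 of 2 Sdhaf members rose. Median log2 fold changes lay between 0.86 (complex II) and 1.11 (complex III) over the 5 complexes.

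**Figure D2:**
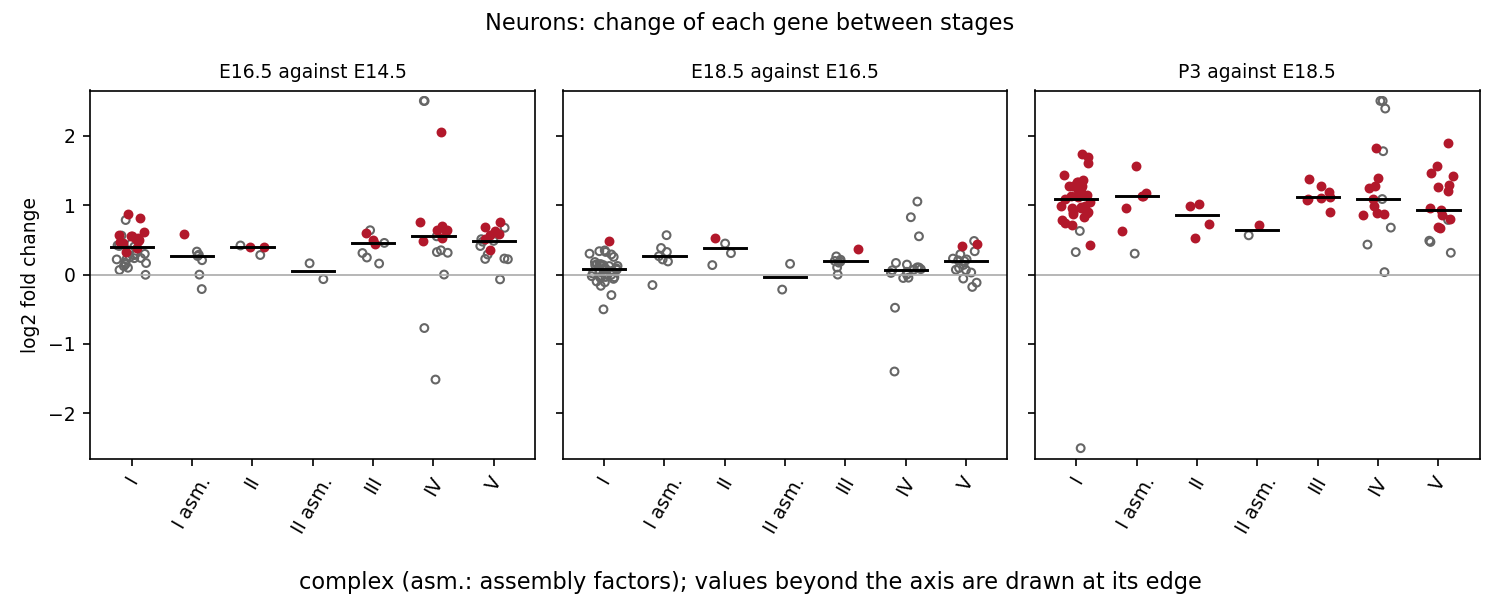
Log2 fold change of each member in neurons (y axis) by complex (x axis) for 3 comparisons of stages. Filled points passed an adjusted p of 0.05, bars are medians, and values beyond the axis are drawn at its edge. Between P3 and E18.5, 75 of 92 members were called higher, against 35 between E16.5 and E14.5 and 5 between E18.5 and E16.5.

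Ndufv2, the iron-sulfur subunit of the NADH-oxidizing module of complex I, was at 281.6 and 316.9 CPM on the E18.5 plates and at 1044 and 879.8 CPM on the P3 plates. The groups did not overlap, and the log2 fold change was 1.69 ± 0.12 (SE; 3.22-fold; adjusted p = 2.28e-05). Ndufa4, first assigned to complex I and now placed with cytochrome c oxidase, had 504.7 and 542.5 CPM at E18.5 and 1810 and 1652 CPM at P3. Its log2 fold change of 1.73 ± 0.16 (adjusted p = 5.12e-05) was the highest of the 8 members with the lowest adjusted p.

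Atp5f1, subunit b of the stalk that holds ATP synthase in place, went from 382.7 and 430.7 CPM at E18.5 to 1174 and 1060 CPM at P3, a log2 fold change of 1.46 ± 0.11 (adjusted p = 2.72e-05). The complex I assembly factor Ndufaf5 was lower in level, with 54.97 and 57.35 CPM at E18.5 and 171.3 and 158.2 CPM at P3, and rose by a log2 of 1.56 ± 0.13 (adjusted p = 4.02e-05). Of the accessory subunits of complex I, Ndufb8 rose by 1.25 ± 0.09 (log2, adjusted p = 2.49e-05), Ndufb9 by 1.36 ± 0.12 (adjusted p = 5.18e-05) and Ndufb6 by 1.60 ± 0.15 (adjusted p = 6.34e-05). Cox5b, a subunit of complex IV that binds zinc, was at 91.96 and 95.71 CPM at E18.5 and at 245.1 and 205.6 CPM at P3 (log2 1.27 ± 0.12, adjusted p = 6.34e-05).

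**Figure D3:**
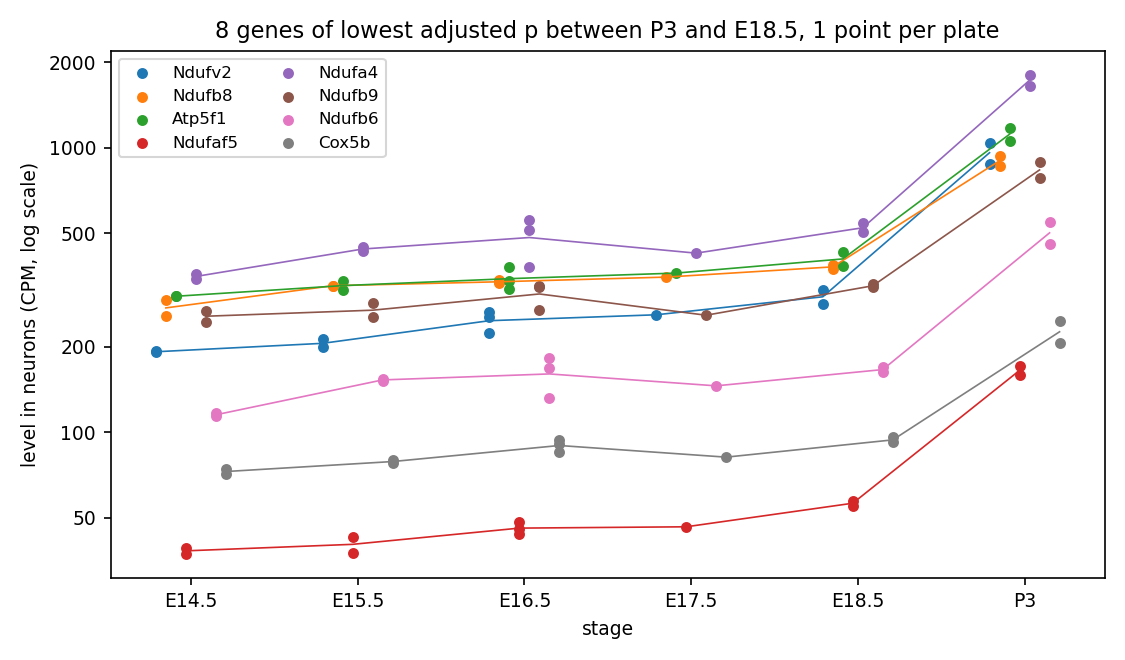
Level in neurons (y axis, CPM on a log scale) by stage (x axis) of the 8 members with the lowest adjusted p between P3 and E18.5. Each point is 1 plate and lines join the means of stages. All 8 were higher on both P3 plates than on any earlier plate, for Ndufv2 at 879.8 and 1044 CPM.

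The 17 members tested that did not pass at P3 were of several kinds. Of these, 6 were tissue-restricted forms at low levels (Cox4i2, Cox6a2, Cox6b2, Cox7a1, Cox7b2 and Cox8b). A further 5 share near-identical stretches with pseudogenes (Atp5l, Atp5g2, Cox7c, Ndufab1 and Cox7a2l), but Atp5g1, Atp5h, Ndufa12 and Ndufb4 share such stretches too and were called higher. The rest were Atp5e, Atp5k, Ndufb7, Ndufaf7, Sdhaf1 and Ndufa4l2. Ndufa4l2 alone had a log2 fold change below 0 (-4.27 ± 1.97, adjusted p = 0.152), with 8 and 10 counts on the E18.5 plates and 1 and 0 at P3. Ndufs5 and Cox8c had too few counts to be tested in any comparison.

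Cox6a2, the form of complex IV subunit VIa known from heart and skeletal muscle, was at 0.846 and 0.715 CPM on the P3 plates. It had counts in 46 of 376 and 13 of 125 neurons there, and in 1 of 354 and 1 of 332 neurons on the only earlier plates with any count in neurons (E16.5 replicate 2 and E18.5 replicate 2). The log2 fold change of P3 against E18.5 was 6.37 ± 2.03 (adjusted p = 0.0507), which missed the threshold. P3 neurons carried 829000 and 1092000 counts in the median, against 316900 and 449000 for E18.5 neurons.

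Several values moved together with this comparison. Dissociation response genes summed to 938.6 and 781.6 CPM on the P3 plates and to 3225 and 2745 CPM at E18.5, and cell division genes to 38.86 and 26.14 CPM against 192.5 and 148.7 CPM. Sox10, a glial transcription factor, was at 10 CPM or more in 66.0% and 76.8% of P3 neurons, 60.1% and 66.6% of E18.5 neurons and 2.82% to 5.75% of SS2_20 neurons. With those cells left out, 69 of 90 members rose at P3, with a median log2 of 0.90. The share of all genes that rose in that fit is not given here. The part of dissociation and plate series in the P3 values was not tested. Since P3 came from an earlier study, age cannot be told apart from series or study.

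From E14.5 to E16.5, 35 of 92 members rose and 0 fell, where 9.65% of all genes rose and 5.77% fell. The median log2 fold change was 0.41 over the members, 0.10 over all genes and 0.30 over other genes with exons as short. All 3 E16.5 plates lay above both E14.5 plates for 60 members, against 23.1% of genes. The count depended on the plates in the fit. Within SS2_20, with 6 plates in all and 1 of E16.5, 1 of 87 members passed (1.93% of genes in either direction) and the median log2 was 0.17. Without E16.5 replicate 1 or 2 the count fell to 5 or 7, and without E14.5 replicate 1 or 2 to 7 or 12. Without E16.5 replicate 3 it was 53.

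Cox8a, the common form of the smallest subunit of complex IV, was at 208.0 and 217.4 CPM on the E14.5 plates, at 395.5 and 391.9 CPM on the SS2_18 plates of E16.5 and at 275.1 CPM on the SS2_20 plate. Its log2 fold change was 0.76 ± 0.15 (adjusted p = 0.00636). Ndufa5, an accessory subunit of the matrix arm of complex I, had 63.14 and 86.55 CPM at E14.5 and 156.1, 147.6 and 101.3 CPM at E16.5 (log2 0.87 ± 0.19, adjusted p = 0.0133). For both, the SS2_20 plate of E16.5 lay between E14.5 and the SS2_18 plates.

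Of the other 6 members with the lowest adjusted p, Ndufa11 (0.57 ± 0.10), Ndufs6 (0.62 ± 0.13), Atp5o (0.58 ± 0.12), Atp5c1 (0.58 ± 0.13) and Sdhd (0.40 ± 0.09) rose by less than 1 on the log2 scale. Cox6b2, the testis form of subunit VIb, rose from 0.828 and 1.27 CPM at E14.5 to 4.54, 4.89 and 3.39 CPM at E16.5 (log2 2.05 ± 0.44, adjusted p = 0.0116). It was at 8.19 and 7.29 CPM at E18.5 and 16.75 and 16.03 CPM at P3, but remained under 1% of Cox6b1 and Cox6b2 together per length in neurons.

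From E16.5 to E18.5, 5 of 92 members rose (2.97% of genes rose) and 0 fell (2.53%, or 5.5% in either direction). Sdhd was at 215.3, 206.3 and 191.4 CPM at E16.5 and at 297.9 and 302.9 CPM at E18.5, a log2 fold change of 0.53 ± 0.08 (adjusted p = 0.00657). Atp5a1 and Atp5b, the alpha and beta subunits of the catalytic head of ATP synthase, rose by 0.44 ± 0.08 and 0.41 ± 0.07 (adjusted p = 0.0121 and 0.00932). Ndufs1, the largest subunit of complex I, rose by 0.48 ± 0.12 (adjusted p = 0.0432), and Uqcrc1, a core protein of complex III, by 0.37 ± 0.08 (adjusted p = 0.0226). Without either E18.5 plate, 0 members passed.

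Within SS2_20 alone, from E14.5 to E17.5 on 6 plates, 2 of 87 members rose per day, against 2.68% of genes, and 0 fell, against 2.41% (5.1% in either direction). Sdha, the flavoprotein that oxidizes succinate, was at 328.2 and 293.1 CPM at E14.5, 374.0 and 394.7 CPM at E15.5, 500.4 CPM at E16.5 and 571.5 CPM at E17.5. It rose by a log2 of 0.31 ± 0.04 per day (adjusted p = 0.00751). On the SS2_18 plates of E16.5 it was at 373.5 and 356.9 CPM, below the SS2_20 plate of the same stage. Atp5a1 rose by 0.12 ± 0.03 per day (adjusted p = 0.0450). The median over members was 0.07 per day.

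Other genes of mitochondrial energy metabolism were counted for the same step from E18.5 to P3. Cytochrome c, which shuttles electrons to complex IV, and its partner in complex III both rose (Cycs by a log2 of 1.59 ± 0.24 and Cyc1 by 0.90 ± 0.12). Of 27 other assembly factors, 13 rose, led by Ttc19. Of 12 mitochondrial carriers and channels, 9 rose and 1 fell, with the phosphate carrier Slc25a3 (1.41 ± 0.08) leading and Ucp2 lower (-0.94 ± 0.22). Of 17 genes of the TCA cycle and pyruvate dehydrogenase, 13 rose, led by Sucla2 (1.45 ± 0.11), and Idh2 fell (-0.80 ± 0.20). Glycolysis was mixed, with 7 of 21 genes higher, Eno2 in the lead, and 3 lower, Slc16a3 in the lead (-4.15 ± 0.43). Of 15 regulators of mitochondrial biogenesis, 2 rose and 4 fell (12.5% and 12.4% of all genes did), with Tfb1m (0.97 ± 0.23) and Polg (-1.68 ± 0.20) in the lead.

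The same lists were counted for the earlier steps. From E14.5 to E16.5, where 9.65% of genes rose, Cycs and Cyc1 rose (1.31 ± 0.23 and 0.42 ± 0.11). So did 3 of 27 assembly factors, 4 of 12 carriers, 5 of 17 TCA genes, 7 of 21 glycolysis genes and 2 of 15 regulators, and none fell. Ppargc1a, a coactivator of mitochondrial biogenesis, led the regulators (2.68 ± 0.45). Summed over all 15, the regulators were at 953.8 and 1033 CPM at E14.5 and at 816.6, 800.5 and 947.0 CPM at E16.5. E16.5 replicates 1 and 2 were of SS2_18 and the E14.5 plates of SS2_20, so plate series differed in this step too. From E16.5 to E18.5, where 2.97% of genes rose, 9 of 21 glycolysis genes and 5 of 17 TCA genes rose, led by Tpi1 (0.80 ± 0.08) and Pdha1 (0.87 ± 0.10), while 0 of 27 assembly factors and 1 of 12 carriers did.

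The second comparison set classes of the same plate against each other. In glia, members took 1.39% to 1.57% of counts on SS2_20 plates, 1.95% and 1.98% on SS2_18 plates and 1.60% at E18.5. In mesenchyme they took 1.14% to 1.45% on SS2_20 plates and 1.98% on the SS2_18 plate, and in hair cells 2.36% at E16.5, 1.12% at E17.5 and 1.61% and 1.81% at E18.5. Neurons lay above glia and mesenchyme of their own plate on all 9 and all 7 plates. Neurons lay above hair cells at E18.5 (2.43% and 2.47%) and E17.5, and below them on the E16.5 plate with 8 hair cells.

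Glia had lower levels than neurons for 43 of 89 members tested and higher for 1, where 22.9% of 16063 genes were lower and 20.6% higher. The median log2 difference was -0.37 over the members and -0.04 over all genes, and 38 members were lower in glia on all 9 plates (19.6% of genes were). Glia of SS2_18 and E18.5 carried SGN markers, as given above, and their part in the difference was not tested. With glia of SS2_20 alone, 30 of 88 members were lower and 3 higher, with a median of -0.29. The shares of all genes in that fit are not given here.

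By complex, 18 of 37 complex I members, 2 of 4 of complex II, 3 of 8 of complex III, 8 of 14 of complex IV and 8 of 17 of complex V were lower in glia. Cox5a, a subunit of complex IV, was at 328.9 and 298.6 CPM in neurons of E14.5 and at 147.3 and 142.0 CPM in glia of the same plates. On the SS2_20 plate of E16.5 it was at 332.2 and 116.5 CPM, and at E18.5 replicate 1 at 494.4 and 205.1 CPM. Over 9 plates it was 2.46-fold lower in glia (log2 -1.30 ± 0.18, adjusted p = 1.92e-05).

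Ndufv3, a small subunit of the NADH-oxidizing module, had the lowest adjusted p (log2 -0.89 ± 0.11, adjusted p = 5.16e-06). Ndufs1 followed (-0.67 ± 0.09, adjusted p = 9.08e-06), then Atp5b (-0.66 ± 0.10, adjusted p = 2.35e-05) and Atp5g3, a subunit of the proton-carrying c ring (-0.89 ± 0.13, adjusted p = 2.60e-05). Uqcrfs1, the Rieske iron-sulfur protein of complex III, was lower by a log2 of -0.61 ± 0.09. The assembly factor Ndufaf5 (-1.59 ± 0.24) and Atp5sl (-1.25 ± 0.19) completed the 8 members with the lowest adjusted p. Ndufaf5 was at 5.38 to 35.34 CPM over the 9 glia sums and at 37.25 to 57.35 CPM over neurons of embryonic plates, so the groups did not overlap.

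Mesenchyme was lower than neurons for 48 of 89 members and higher for 4, against 20.9% and 20.7% of genes (41.6% in all), with a median log2 of -0.43 (all genes -0.04). On all 7 plates, 45 members were lower (20.3% of genes). Without the SS2_18 and E17.5 mesenchyme sums, 43 of 89 were lower and 1 higher, and the shares of all genes in that fit are not given here. Complex I had 23 of 37 members lower, complex IV 8 of 14, complex V 9 of 17, complex III 4 of 8 and complex II 1 of 4.

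Cox5a had the largest difference among the 8 members with the lowest adjusted p, 2.87-fold lower (log2 -1.52 ± 0.21, adjusted p = 1.16e-05). Over SS2_20 plates it was at 89.53 to 135.0 CPM in mesenchyme, and at 345.7 CPM in the SS2_18 sum that carried neuronal markers. Ndufs1 was lower by -0.75 ± 0.10 and Uqcrq, a small subunit of complex III, by -0.95 ± 0.13 (adjusted p = 6.81e-06 and 1.38e-05). Sdhb, the iron-sulfur subunit of complex II, was lower by -0.78 ± 0.11, and Atp5b by -0.77 ± 0.11 (adjusted p = 1.48e-05 and 1.45e-05). Uqcrfs1 (-0.68 ± 0.10), Atp5f1 (-0.71 ± 0.11) and Cox6a1 (-0.83 ± 0.13) were also lower.

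**Figure D4:**
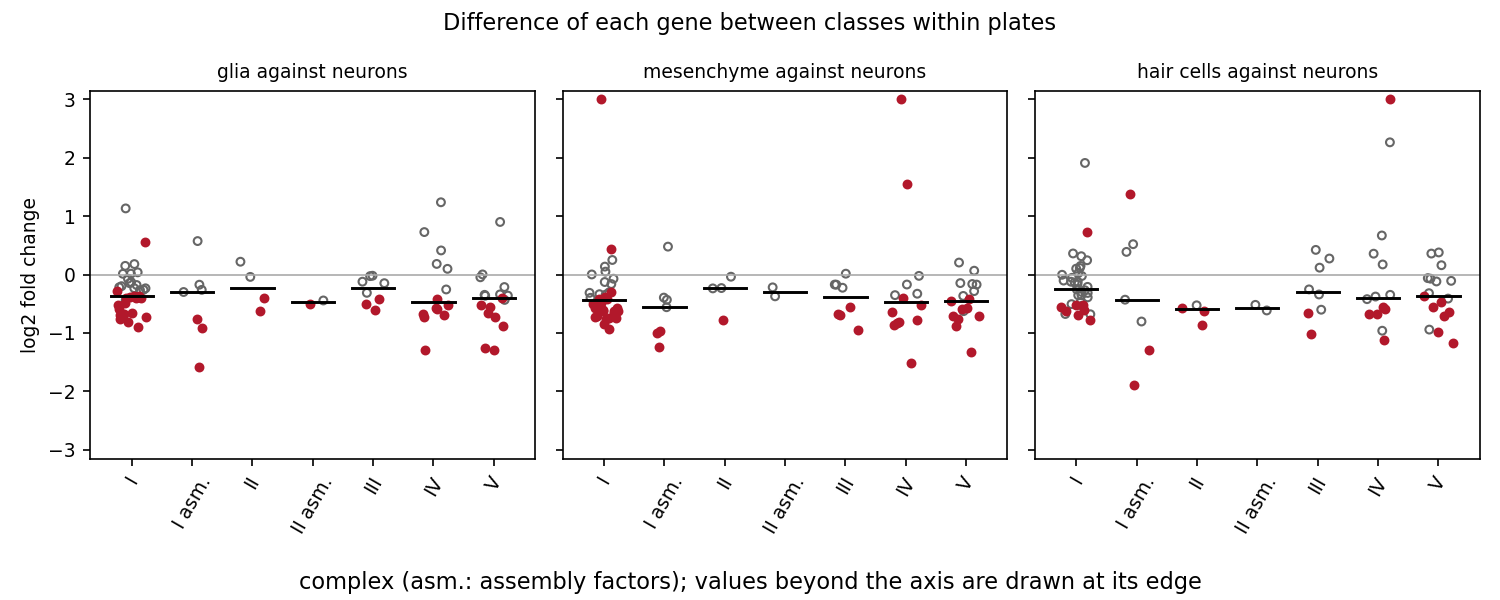
Log2 difference of each member from neurons (y axis) by complex (x axis) in glia, mesenchyme and hair cells, compared within plates. Filled points passed an adjusted p of 0.05, bars are medians, and values beyond the axis are drawn at its edge. The filled points lay mainly below 0, with 43, 48 and 26 members lower in the 3 classes.

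Between glia and mesenchyme, of 89 members, 2 were lower in mesenchyme (5.72% of genes) and 0 higher (8.29%), with a median log2 of -0.10. On all 7 plates 24 members were lower in mesenchyme (11.1% of genes) and 0 higher (9.21%). Ndufv2 was lower by -0.45 ± 0.12 (adjusted p = 0.0149) and Uqcrq by -0.45 ± 0.13 (adjusted p = 0.0221). A p above the threshold does not show that the other members were equal: with sums of at least 20 cells, 19 were lower and 2 higher, and with the 2 classes alone 14 were lower.

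Whether the gap between glia and neurons widened with age was tested within SS2_20. The change per day of the difference passed for 0 of 87 members (0.0428% of genes) in edgeR, with 20 at an unadjusted p under 0.05, and for 7 in DESeq2 and 3 in limma-voom. Its median was -0.10 per day over members and 0.003 over all genes.

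Ndufa2 went against most members and was the only one called higher in glia. Without a call, Cox6b2, Ndufaf2 and Atp5g2 were above neurons on 8 of 9 plates in glia. Ndufa2 was at 94.55 to 142.4 CPM in neurons of the embryonic plates, at 144.5 to 192.7 CPM in glia and at 137.5 to 169.8 CPM in mesenchyme. It was higher in glia on all 9 plates (log2 0.55 ± 0.15, adjusted p = 0.00668) and higher in mesenchyme on all 7 plates (0.43 ± 0.17, adjusted p = 0.0469). Without the SS2_18 and E17.5 mesenchyme sums, Ndufa2 kept a log2 of 0.43 but not the call (adjusted p = 0.104). In hair cells it was higher on 3 of 4 plates (0.73 ± 0.21, adjusted p = 0.0129). The 2 P3 plates of neurons, at 231.2 and 214.6 CPM, lay above all glia and mesenchyme sums.

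Hair cells were lower than neurons for 26 of 89 members and higher for 3, against 18.8% and 12.3% of genes (31% in all). The median log2 difference was -0.35 over members and -0.34 over all genes. Other genes with exons no longer than the median member had a median of -0.10, with 12.6% lower, and ribosomal protein genes 0.24. With RLE size factors the medians of members and all genes were -0.23 and -0.23. The calls depended on the fit: with hair cells and neurons alone 0 of 87 members passed, and with limma-voom 67 did. On all 4 plates 25 members were lower (29.4% of genes). With hair cells of E18.5 alone, 38 of 90 were lower and 1 higher, with a median of -0.49. The shares of all genes called in these alternative fits are not given here, so their counts have no background beside them.

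Uqcrc1 was at 769.1 and 758.9 CPM in neurons and at 418.1 and 427.1 CPM in hair cells of the 2 E18.5 plates. It was 2.03-fold lower over 4 plates (log2 -1.02 ± 0.13, adjusted p = 7.63e-06). Sdhb (-0.87 ± 0.14, adjusted p = 9.77e-05) and Ndufv1, the flavoprotein that binds NADH (-0.77 ± 0.13, adjusted p = 0.000154), were lower too. The assembly factor Ndufaf4 was lower by -1.89 ± 0.33, with 21.05 and 26.89 CPM in hair cells and 66.25 and 69.80 CPM in neurons at E18.5. Ndufa9 (-0.70 ± 0.13), Atp5o (-0.98 ± 0.19), Uqcrfs1 (-0.65 ± 0.13) and Atp5b (-0.63 ± 0.13) completed the 8 lowest adjusted p. Ndufaf6, an assembly factor of complex I, was higher (1.38 ± 0.40, adjusted p = 0.0121), at 53.97 and 67.02 CPM against 30.56 and 28.13 CPM at E18.5.

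Cox4i2, the form of complex IV subunit 4 known from lung and from low oxygen, had the largest difference of any member in hair cells. It was at 34.63 and 27.68 CPM in hair cells of E18.5 and at 0.497 and 0.271 CPM in neurons of those plates. In those hair cells 28 of 37 and 20 of 32 cells held a count, with 9.93% and 17.1% of the counts in the highest cell. In neurons of E18.5, 16 of 326 and 15 of 332 cells did, at similar median depth (316900 and 449000 counts per neuron, 329000 and 398600 per hair cell). The log2 difference over 4 plates was 5.59 ± 1.30 (adjusted p = 0.00278). Whether cochlear and vestibular hair cells differed in Cox4i2 was not tested.

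In the earlier hair cell sums Cox4i2 rested on single cells. At E16.5 all 30 counts came from 1 of 8 cells, and at E17.5 1 of 5 cells held 1 count. Per length, Cox4i2 made up 9.89% and 7.52% of Cox4i1 and Cox4i2 together in hair cells of E18.5, and at most 0.244% in any sum of neurons. Cox4i1, the common form, stayed the main one, with 620.5 and 669.4 CPM in those hair cells.

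In mesenchyme, Cox4i2 (3.10 ± 0.94, adjusted p = 0.0120) and Ndufa4l2, a relative of Ndufa4 known as a target of low oxygen signalling (3.38 ± 1.15, adjusted p = 0.0245), were higher than in neurons but rested on few cells. Cox4i2 had counts in 15 of 167 and 9 of 197 cells at E14.5, where it was at 7.74 and 2.95 CPM. Ndufa4l2 had counts in 2 and 5 of the same cells. The 5 pericyte markers summed to 127.4 to 599.3 CPM in mesenchyme and 0.178 to 33.53 CPM in neurons, and their part in these 2 genes was not tested. Cox6b2 was higher in mesenchyme too (1.55 ± 0.57, adjusted p = 0.0332), at 3.91 to 12.90 CPM. Without the SS2_18 and E17.5 sums, Cox6b2 passed (adjusted p = 0.0405), and Cox4i2 (adjusted p = 0.0773) and Ndufa4l2 (adjusted p = 0.0700) did not.

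**Figure D5:**
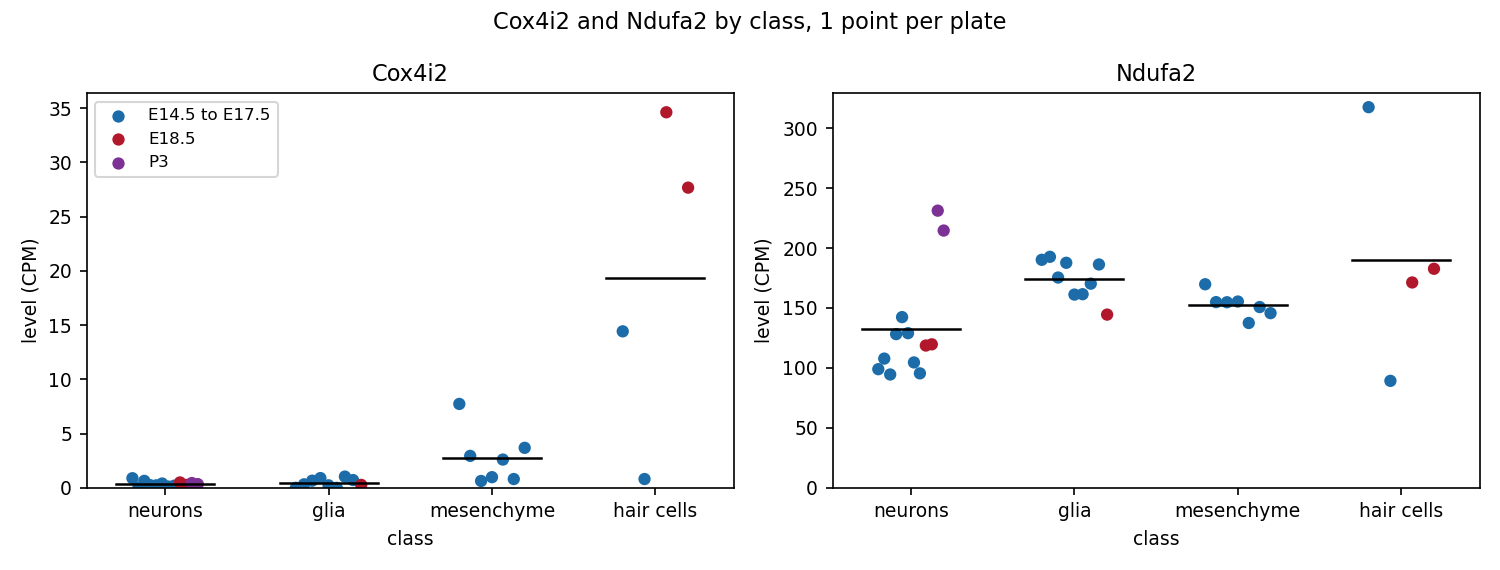
Level (y axis, CPM) of Cox4i2 and Ndufa2 by cell class (x axis). Each point is 1 plate, coloured by stage, and bars are means over plates. Cox4i2 was at 34.63 and 27.68 CPM in hair cells of E18.5 and under 1 CPM in every sum of neurons, and Ndufa2 in embryonic neurons lay below glia of the same plate.

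The other paired forms were dominated by 1 gene in every class. Atp5g3 made up 96.12% to 98.48% of the 3 c ring genes per length, with Atp5g1 next, at 2.01% to 3.85% in neurons, though Atp5g1 and Atp5g2 have near-identical pseudogene copies. Cox7a1, the heart and muscle form, was at most 2.63% of Cox7a1 and Cox7a2 in neurons, and 3.63% and 4.39% in hair cells of E18.5. In the small hair cell sums it was 15.51% at E17.5 and 0 at E16.5. The muscle form Cox8b and the testis form Cox8c stayed under 0.5% of their pairs with Cox8a in every sum.

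Of the linked lists, cytochrome c and Cyc1 were lower in glia (log2 -1.33 ± 0.40 and -0.54 ± 0.14) and in mesenchyme (-1.35 ± 0.45 and -0.66 ± 0.15), and Cycs was lower in hair cells (-2.05 ± 0.63). In glia, 8 of 12 carriers, 8 of 17 TCA genes, 9 of 21 glycolysis genes and 7 of 27 assembly factors were lower, against 1, 2, 4 and 0 higher (22.9% of genes were lower and 20.6% higher). In mesenchyme the counts lower were 8, 7, 9 and 5, against 1, 2, 5 and 0 higher (20.9% and 20.7% of genes). In hair cells 6, 8, 4 and 9 were lower against 1, 2, 6 and 4 higher (18.8% and 12.3% of genes), and Ucp2 was the carrier that was higher (2.44 ± 0.37). Slc2a1, the widespread glucose transporter, was higher in all 3 classes (1.34 ± 0.18, 2.12 ± 0.20 and 1.998 ± 0.236), and Hk1, the main hexokinase of neurons, was lower in all 3 (-2.08 ± 0.18, -1.59 ± 0.20 and -1.44 ± 0.25).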

How the data were processed

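Single TOM+ cells of the mouse cochlea were sequenced with Smart-seq2. The authors aligned reads with STAR to mm10 with ERCC spike-ins and deposited raw counts of uniquely mapped reads per gene. Wells with over 1000 genes and under 5% ERCC were kept, scaled to 1000, and clustered with scanpy 1.11.5 (2000 variable genes, 30 components, 30 neighbours, Leiden resolution 1), leaving out the members and the study's glial genes. Clusters were named from markers at a score of at least 0.4, raised after cluster tables were seen and before any test. One plate with 384 wells matched no sample and was not used.

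Counts were summed per plate and class (at least 10 cells, or 5 for hair cells) and tested over all genes with edgeR 4.0.16 (quasi-likelihood, TMM, Benjamini-Hochberg) in R 4.3.3. Stage fits used all 12 plates, and class fits took the plate as a block. DESeq2 1.42.0, limma 3.58.1 (voom), RLE size factors, other filters and left-out plates were alternatives. Levels are CPM, or CPM per kilobase of annotated exon. The SE of a log2 fold change is its absolute value over the square root of the F statistic of its test, and so is approximate. Simulated data, in which unchanged genes had the same mean in every sum, were used to check the tests. The changed genes were drawn at random from all genes tested, at any level, and were not the members. A true log2 change of 1 was called in 27.3% of genes for E16.5 against E14.5 and 28.6% for glia against neurons. For a log2 of 2 it was 52.5% and 51.5%. Per day within SS2_20, 72.4% of log2 slopes of 1 were called, with 14 false calls. The members called there had smaller slopes. These shares do not give the chance that a changed member was called. Members not called were not shown to be unchanged. Named members are isoform pairs, the 8 called with the lowest adjusted p in each direction, and the highest per length in each complex. The members and lists were chosen with earlier results of these data known.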

Additional observations from a re-analysis of the deposited data

Results flagged for a closer look

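The share of counts in the 94 genes was 1.98% in mesenchyme of E16.5 replicate 2, far from the other 6 mesenchyme sums, which lay between 1.14% and 1.45% (gap over range 0.633, n = 7). Such a gap arises by chance in about 1 of 20 groups, and 38 groups were examined. This sum held 11 cells of SS2_18 and had 8889 CPM over the SGN markers, against 62.79 to 169.0 CPM in the others. The part of these markers in the share was not tested.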

How the results depend on the processing

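Of 92 members, 35 were called between E16.5 and E14.5, and 1 with SS2_20 plates alone. Between E18.5 and E16.5 the 5 calls became 12 with DESeq2 and 30 with limma-voom (21 higher, 9 lower). Per day within SS2_20 the 2 calls became 1 without a filter, without the cells of highest counts or with means of cells, and 4 with DESeq2 or limma-voom. Glia against neurons went from 44 to 28 with SS2_20 plates alone. Mesenchyme against glia went from 2 to 9 (DESeq2), 16 (limma-voom), 5 (Leiden resolution 2 or SS2_20 alone), 6 (Sox10 cells left out or means of cells), 21 (at least 20 cells), 14 (only these classes) and 4 without the replicate block. Hair cells against neurons went from 29 to 67 with limma-voom and 0 with only these classes. The change per day of the glia difference went from 0 to 7 (DESeq2), 3 (limma-voom), 2 (means of cells) and 1 without the replicate block. Without the block, glia, mesenchyme and hair cells had 50, 56 and 40 calls, against 44, 52 and 29. The causes were not tested. Apart from the E16.5 fit within SS2_20, the shares of all genes called are not given for alternative fits or left-out plates.

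Leaving out each plate in turn gave 5 to 53 calls for E16.5 against E14.5, 0 to 7 for E18.5 against E16.5, 66 to 80 for P3 against E18.5, 0 to 2 per day, 35 to 50 for glia, 42 to 52 for mesenchyme, 1 to 6 for mesenchyme against glia, 19 to 47 for hair cells and 0 to 0 for the change of the glia difference. Calls for hair cells fell to 19 without E18.5 replicate 1 and rose to 47 without E16.5 replicate 3, and those per day fell to 0 without E17.5. In hair cells against neurons with limma-voom, Cox8a (-0.19) and Sdhaf1 (0.41) changed sign. With alternatives chosen after seeing the data, P3 had 90 calls in a fit of E18.5 and P3 alone, glia 33 with SS2_20 glia, 37 without E14.5 glia, mesenchyme 44, and hair cells 39 with E18.5 alone. No paired analysis was possible for stages because replicate numbers only name plates. Counts per cell, plate series and few hair cells limit the depth and precision of these values.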
